A study of Mus musculus with 10 samples.

Results

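Of the genes that carry and set the currents of the heart, 27 were followed in the hearts of male mice that lack plasma sphingosine 1-phosphate (S1P) and in their littermates. They are subunits of sodium, potassium and pacemaker channels, connexins and the sodium pump, chosen by gene symbol, and all 27 were among the 15341 genes of the deposited count table. The 5 S1Pless mice had the genotype Sphk1f/-:Sphk2f/-:Mx1Cre+ and the 5 control mice the genotype Sphk1f/-:Sphk2f/-:Mx1Cre-. Both groups thus carried a floxed and a null allele of each sphingosine kinase gene, and the groups differed in Mx1-Cre, whose promoter responds to interferon and drives recombination in blood-forming cells and in some cells of other tissues. The labels give neither the age of the mice nor how or when Mx1-Cre was induced. RNA from the hearts was sequenced, and each gene's reads were counted.

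The heartbeat is set by ion channels that open in sequence. Sodium channels start the action potential, the transient outward and delayed rectifier potassium currents repolarise the cell, inward rectifiers hold it at rest, HCN channels drive pacemaking, connexins pass the current from cell to cell, and the sodium pump restores the gradients. Most of these channels are built of a pore subunit with auxiliary subunits that change its gating or its number at the membrane. In the mouse ventricle, repolarisation is fast and rests mainly on the transient outward current and the slow delayed rectifiers, and less on the currents of KCNQ1 and ERG channels than in the human ventricle.

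The libraries held 16354071 to 20832566 counts in S1Pless hearts and 17204491 to 20202283 in control hearts. The kinase genes themselves overlapped between the groups, with Sphk1 at 0.4 to 0.987 CPM in S1Pless hearts and 0.852 to 1.78 CPM in control hearts, and Sphk2 at 13.9 to 18.7 CPM in S1Pless hearts and 18 to 23.6 CPM in control hearts; neither passed the test (adjusted p = 0.168 and 0.18, edgeR). CPM, the usual depth-normalised unit of counts, was scaled by TMM factors, and 1 count was worth 0.0451 to 0.0658 CPM. The defining atrial genes Myl7 and Sln were near 0 in 9 of the 10 hearts (up to 0.142 and 0.168 CPM), whereas S1Pless replicate 3 had 9.69 CPM of Myl7 and 4.29 CPM of Sln. The whole atrial list summed to 152.2 to 389.5 CPM in S1Pless hearts, with replicate 2 the highest and replicate 3 at 192.1 CPM, and 86.6 to 319.0 CPM in control hearts, with 0 of 7 tested markers called by edgeR or DESeq2 and 2 at an unadjusted p below 0.05. The sinus node marker Isl1 had no read in any heart, which allows up to 0.135 to 0.197 CPM for 3 counts, depending on the library. How much atrial and sinus node tissue the samples held was not tested, so the values below may not cover these tissues. In the library numbers the controls precede the S1Pless hearts, and this order cannot be told apart from genotype.

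Across these genes the S1Pless hearts lay lower, with 2 genes past the test. Scn3b, a sodium channel beta subunit, was 1.85-fold higher in S1Pless hearts, and Kcnj3, a pore subunit of the acetylcholine-gated potassium channel, was 1.38-fold lower. Of the 26 genes with enough reads to be tested (edgeR's quasi-likelihood method, p-values adjusted by Benjamini-Hochberg over 12992 genes), 1 was called higher and another lower (threshold 0.05). Of all genes tested, 3.40% were called higher and 0.316% lower, or 3.72% in either direction. An unadjusted p below 0.05 was found in 10 of the 26, of which 8 were lower. The log2 fold change was below 0 in 23 of the 26, against 52.6% of all genes tested. The median was -0.25 on the log2 scale, against -0.01 over all genes tested. When libraries were scaled to cardiomyocyte markers, 18 of the 26 were below 0, against 13.1% of all genes tested. Changing the scaling shifts all genes by nearly the same amount, so this second comparison with all genes does not test the cardiomyocyte share. The groups did not overlap in 4 of the 26. Scn3b was higher in every S1Pless heart, and Kcnj3, Kcnh2 and Kcnip2 were lower in every S1Pless heart; genes without overlap made up 4.53% of all genes tested on the higher side and 1.82% on the lower, 6.35% together. Summed over the 27 genes the level was 1789.7 to 1982.8 CPM in S1Pless hearts and 2117.5 to 2495.6 CPM in control hearts, a sum to which the abundant genes give most. Dpp6, an auxiliary subunit of the transient outward channel, had 6 to 17 reads per library and did not pass the filter on low counts.

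**Figure D1:**
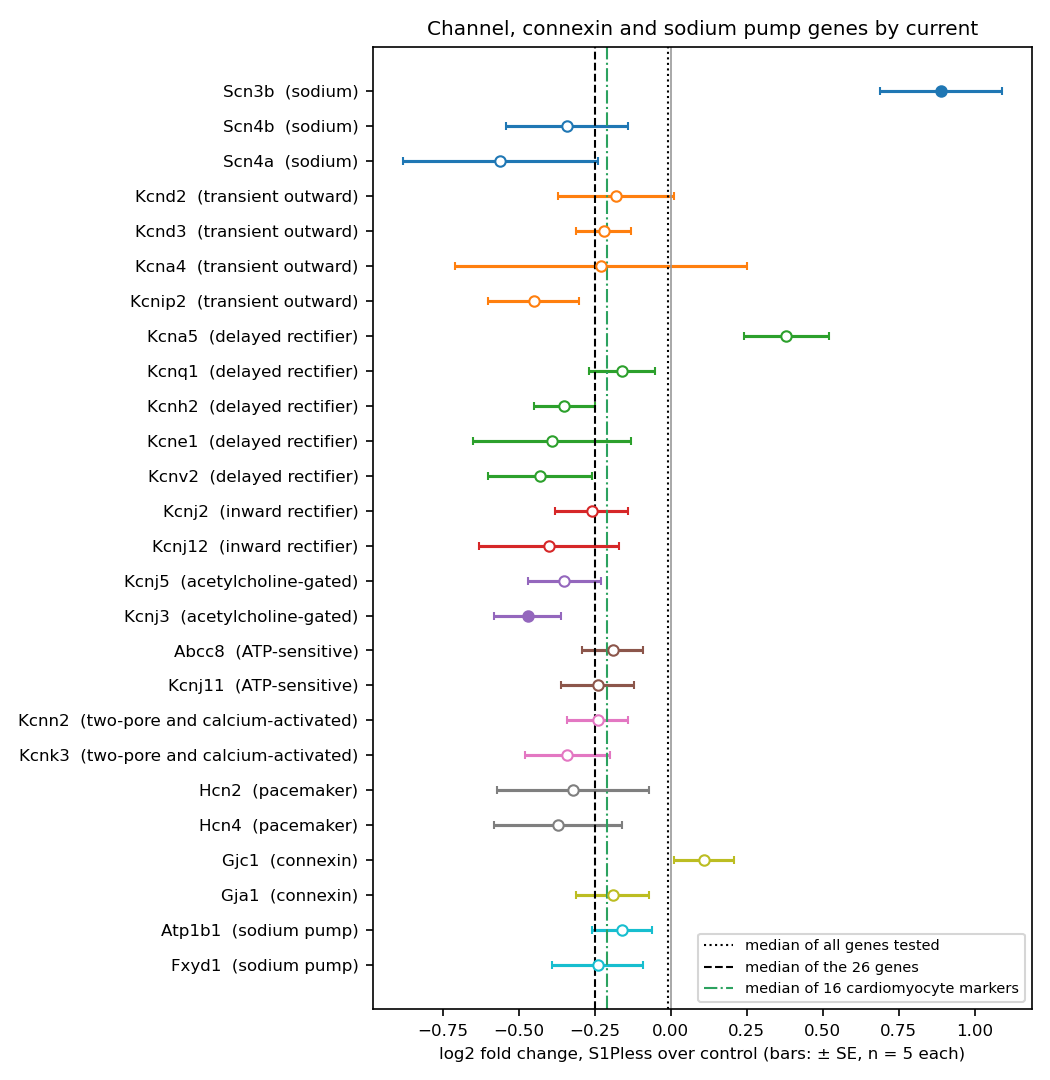
Log2 fold change of S1Pless over control hearts (x axis) for the 26 tested genes, grouped and coloured by current (y axis); points are estimates, bars the standard error over 5 hearts each, and filled points passed the test. Scn3b at 0.89 and Kcnj3 at -0.47 are filled, and 23 genes lie left of 0, around the median of -0.25 and close to the cardiomyocyte marker median of -0.21.

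Marker lists of cell types in the heart were measured beside these genes. All 16 cardiomyocyte markers had a log2 fold change below 0, with a median of -0.21 and 0 called (2 at an unadjusted p below 0.05, and 1 called by DESeq2), and their summed level was 61361 to 75869 CPM in S1Pless hearts and 73776 to 87219 CPM in control hearts. All 15 macrophage markers had a log2 fold change above 0, with a median of 0.87 and 7 called, and summed to 578.2 to 1390.4 CPM in S1Pless hearts, with replicate 5 the highest, and 364.8 to 472.9 CPM in control hearts. The fibroblast list had a median of 0.22 with 0 of 11 called by edgeR, 4 at an unadjusted p below 0.05 and 4 called by DESeq2, and the smooth muscle and pericyte list -0.14 with 0 of 15 called by either and 2 at an unadjusted p below 0.05. The endothelial list had a median of 0.2 with 1 of 13 called (Erg) and 6 at an unadjusted p below 0.05, of which 5 were higher. Of the endothelial markers DESeq2 called 2 higher and 1 lower, and limma-voom 2 higher. The nerve and glia list had a median of -0.03 with 1 of 10 called (Uchl1), 2 at an unadjusted p below 0.05 and 1 called by DESeq2. The retained blood list had a median of 0.52 with 0 of 9 called by edgeR or DESeq2 and 1 at an unadjusted p below 0.05. For the ventricular list the median was -0.23, with 0 of 7 called by edgeR or DESeq2 and 2 lower at an unadjusted p below 0.05. For the skeletal muscle list it was 0.01, with 0 of 8 called by edgeR or DESeq2 and 1 higher at an unadjusted p below 0.05. What part these cells had in the channel values was not tested. In bulk tissue, fewer cardiomyocytes and less channel RNA per cardiomyocyte cannot be told apart. With libraries scaled to the cardiomyocyte markers, an alternative chosen after seeing the data, the median of the 26 genes was -0.04 and that of all genes 0.19. Such scaling shifts all genes by nearly the same amount, so the gap between these medians does not test the cardiomyocyte share.

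The acetylcholine-gated channel, through which the vagus nerve slows the heart, is built of GIRK1, which Kcnj3 encodes, and GIRK4, which Kcnj5 encodes. Kcnj3 (ENSMUSG00000026824) had 73.5, 69.7, 90.2, 78.3 and 83.7 CPM in the 5 S1Pless hearts and 132.6, 90.6, 104.1, 105.7 and 113.5 CPM in the 5 control hearts. Every S1Pless heart lay below every control, although S1Pless replicate 3 and control replicate 2 nearly met. Its log2 fold change was -0.47 ± 0.11 (SE, adjusted p = 0.0314, edgeR). Kcnj5 had 51.4, 61.4, 74.9, 71.8 and 66.9 CPM in S1Pless hearts and 72.0, 91.5, 73.3, 78.9 and 100.9 CPM in control hearts. It did not pass, at a log2 fold change of -0.35 ± 0.12 (adjusted p = 0.126, edgeR), with 4 of 5 S1Pless hearts below the lowest control. The log2 ratio of Kcnj3 to Kcnj5 counts was 0.28 ± 0.152 in S1Pless hearts and 0.39 ± 0.342 in control hearts (SD, n = 5 each), and the groups overlapped. Both channel genes are known for higher levels in atria than in ventricles. S1Pless replicate 3, the heart with Myl7 and Sln reads but no high sum of the atrial list, had the highest Kcnj3 and Kcnj5 of its group, and without it the log2 fold change of Kcnj3 was -0.51 (adjusted p = 0.0319, edgeR). With each heart left out in turn the call held in 3 of 10 fits, with log2 fold changes of -0.52 to -0.40 and adjusted p of 0.0319 to 0.0724 (edgeR). Within the lower and the higher number series of the sample titles the difference was -0.47 and -0.49 on the log2 scale; the higher series holds 1 control heart. The call was lost with library totals alone (adjusted p = 0.0708), with a block for neighbouring title numbers (adjusted p = 0.0915) and with cardiomyocyte marker scaling (log2 fold change -0.25, adjusted p = 0.202, edgeR).

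The stretches of 250 bases before the start sites of the 3 lower genes without overlap, Kcnj3, Kcnh2 and Kcnip2, and of Kcnj5, the partner of Kcnj3, are shown to let the genes that lay lower together be compared. They are RefSeq promoters of the build GRCm38.p6, read 5′ to 3′ on the gene's strand, at chr2:55435720-55435969 (plus strand), chr9:32344345-32344594 (minus), chr5:24329592-24329841 (minus) and chr19:45816064-45816313 (minus). Capitals mark matches, on either strand, to the GC box GGGCGG or the T-box core AGGTGT.
Kcnj3: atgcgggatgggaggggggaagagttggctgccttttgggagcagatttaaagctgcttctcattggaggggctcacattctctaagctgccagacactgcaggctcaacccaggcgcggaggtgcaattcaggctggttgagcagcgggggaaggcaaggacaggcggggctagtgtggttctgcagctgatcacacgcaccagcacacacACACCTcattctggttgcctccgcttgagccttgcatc
Kcnj5: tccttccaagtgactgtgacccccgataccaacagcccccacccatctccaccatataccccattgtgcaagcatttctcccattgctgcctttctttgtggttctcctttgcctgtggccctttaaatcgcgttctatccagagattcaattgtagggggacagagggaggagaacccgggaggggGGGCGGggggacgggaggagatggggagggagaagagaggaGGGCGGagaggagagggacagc
Kcnh2: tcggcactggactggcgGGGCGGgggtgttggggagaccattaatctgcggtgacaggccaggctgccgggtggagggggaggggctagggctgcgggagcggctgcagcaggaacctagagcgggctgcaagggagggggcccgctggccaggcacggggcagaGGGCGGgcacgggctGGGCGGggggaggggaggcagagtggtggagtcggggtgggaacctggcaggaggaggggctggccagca
Kcnip2: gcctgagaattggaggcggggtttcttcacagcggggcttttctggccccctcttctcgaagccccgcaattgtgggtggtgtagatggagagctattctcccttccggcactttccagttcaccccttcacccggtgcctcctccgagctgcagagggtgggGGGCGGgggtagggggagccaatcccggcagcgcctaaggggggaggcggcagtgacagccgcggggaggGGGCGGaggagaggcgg
The GC box was found 2 times before Kcnj5, 3 times before Kcnh2, 2 times before Kcnip2 and 0 times before Kcnj3, and 32.7% of 32851 RefSeq promoters of this length hold it. The T-box core was found 1 time, before Kcnj3, and 11.8% of promoters hold it. The TATA box TATAAA, the E-box CACGTG, the GATA motif AGATAA, the NKX2-5 motif TNAAGTG and the cAMP response element TGACGTCA had no match in the 4 stretches, and 12.4%, 6.02%, 9.99%, 10.1% and 1.55% of promoters hold them. No searched motif matched all 4 stretches. Their GC content was 58.4% for Kcnj3, 58.0% for Kcnj5, 73.6% for Kcnh2 and 66.8% for Kcnip2, against a median of 52.4%.

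**Figure D2:**
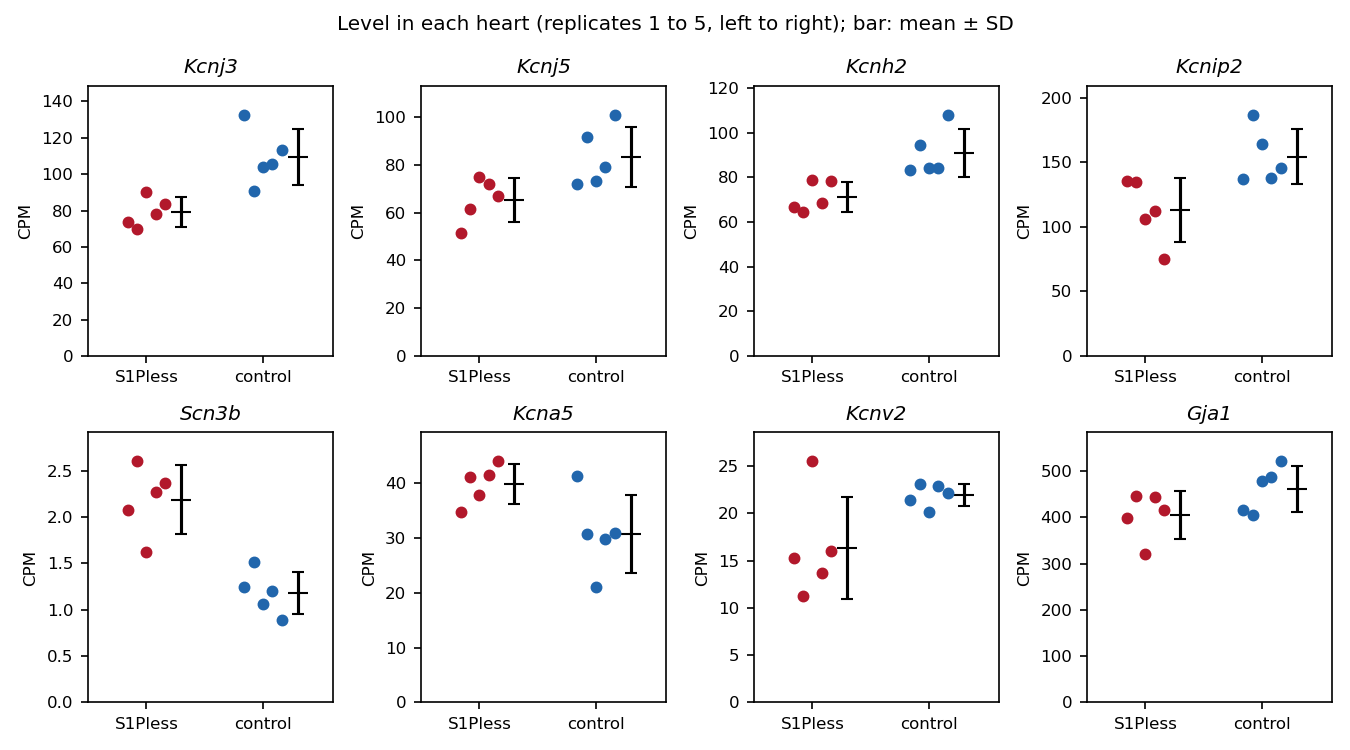
Level in CPM (y axes, from 0) of 8 genes in each S1Pless and control heart (x axes, replicates 1 to 5 from left to right within a group), with the mean and SD as bars. Kcnj3, Kcnh2 and Kcnip2 are lower and Scn3b higher in all 5 S1Pless hearts. In Kcnv2 the highest heart is S1Pless replicate 3 at 25.5 CPM, and in Kcna5 control replicate 1, at 41.2 CPM, lies inside the S1Pless range.

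The sodium channel genes differed from each other. Scn3b (ENSMUSG00000049281), which modulates the gating and surface level of the pore, had 2.08, 2.6, 1.62, 2.27 and 2.37 CPM in S1Pless hearts and 1.25, 1.51, 1.06, 1.2 and 0.894 CPM in control hearts. All S1Pless hearts lay above all controls. It was higher by a log2 fold change of 0.89 ± 0.2 (adjusted p = 0.0303, edgeR), from 16 to 52 reads per library, and the call held in 4 of the 10 leave-one-out fits (adjusted p 0.0252 to 0.0796, edgeR). Within the lower and the higher title series the difference was 0.73 and 1.38. Scn4b, the beta subunit that slows closure and supports resurgent current, had 39.4, 44.7, 70.9, 57.4 and 69.4 CPM in S1Pless hearts and 47.6, 74.9, 56.8, 83.7 and 92.7 CPM in control hearts, with wide overlap. Its log2 fold change of -0.34 ± 0.20 did not pass (adjusted p = 0.37, edgeR). The log2 ratio of Scn3b to Scn4b counts was -4.67 ± 0.535 in S1Pless hearts and -5.89 ± 0.548 in control hearts (SD, n = 5 each), and only S1Pless replicate 3 lay within the control range. Scn4a, the skeletal muscle sodium channel that the heart also transcribes, had 17.5, 13.6, 39.6, 25.9 and 33.8 CPM in S1Pless hearts and 20, 38.8, 31.5, 62.5 and 38.3 CPM in control hearts. It had the most negative log2 fold change of the 26 genes, -0.56 ± 0.32, and the hearts overlapped (adjusted p = 0.373, edgeR).

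Of the transient outward genes, Kcnip2 stood lowest against controls. It encodes KChIP2, which binds the Kcnd pore subunits and brings them to the membrane. Kcnip2 had 135.5, 135.0, 106.4, 112.6 and 74.9 CPM in S1Pless hearts and 137.1, 186.8, 164.6, 138.0 and 145.7 CPM in control hearts. The groups did not overlap, but S1Pless replicates 1 and 2 lay just below the lowest control. Lowest was S1Pless replicate 5, the heart with the highest sum of the macrophage list, and a link between these values was not tested. The log2 fold change of -0.45 ± 0.15 did not pass (adjusted p = 0.115, edgeR). The pore genes Kcnd2 and Kcnd3 had log2 fold changes of -0.18 ± 0.19 and -0.22 ± 0.09 (adjusted p = 0.642 and 0.21, edgeR). Kcnd2 spanned 22.3 to 41.9 CPM in S1Pless hearts and 26.3 to 48.7 CPM in control hearts, and Kcnd3 spanned 18 to 22.6 CPM in S1Pless hearts and 21.3 to 27.8 CPM in control hearts. The log2 ratio of Kcnd2 to Kcnd3 counts was 0.5 ± 0.352 in S1Pless hearts and 0.46 ± 0.278 in control hearts (SD, n = 5 each). Kcna4, the pore of the slow transient outward current, had 1 to 35 reads per library, and its estimate of -0.23 ± 0.48 (adjusted p = 0.827, edgeR) turned to 0.05 without S1Pless replicate 3, which held 1 read.

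The delayed rectifier genes lay on both sides of 0, and none passed. Kcnh2, the ERG pore of the rapid delayed rectifier, had 66.7, 64.6, 78.6, 68.3 and 78.5 CPM in S1Pless hearts and 83.3, 94.4, 84.0, 84.3 and 107.9 CPM in control hearts. Every S1Pless heart lay below every control, and the log2 fold change of -0.35 ± 0.10 missed the threshold (adjusted p = 0.0679, edgeR). It passed in DESeq2 (adjusted p = 0.00898) and limma-voom (adjusted p = 0.0482), with the title series as covariate (adjusted p = 0.0429, edgeR) and without control replicate 1 (adjusted p = 0.0491, edgeR), but in none of the other 9 leave-one-out fits (adjusted p up to 0.142). It was -0.21 with library totals alone (adjusted p = 0.286) and -0.14 with cardiomyocyte marker scaling (adjusted p = 0.509, both edgeR). Kcna5, which in mouse ventricle carries part of the slow delayed rectifier, was the only potassium channel gene of the 27 with a log2 fold change above 0. It had 34.7, 41.0, 37.7, 41.5 and 43.9 CPM in S1Pless hearts and 41.2, 30.6, 21.1, 29.7 and 30.8 CPM in control hearts. Control replicate 1 lay inside the S1Pless range and the other 4 controls below it. The log2 fold change of 0.38 ± 0.14 did not pass (adjusted p = 0.152, edgeR); it was 0.49 without control replicate 1 (adjusted p = 0.0385, the only one of 10 leave-one-out fits to pass, with adjusted p up to 0.312), 0.52 with library totals alone (adjusted p = 0.0272) and 0.58 with cardiomyocyte marker scaling (adjusted p = 0.0275, all edgeR).

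Kcnv2 encodes a silent subunit that joins and modifies channels of the Kcnb family. It had 15.3, 11.3, 25.5, 13.7 and 16 CPM in S1Pless hearts and 21.4, 23.1, 20.2, 22.9 and 22.2 CPM in control hearts. Of the S1Pless hearts 4 lay below all controls, and replicate 3 lay above all of them. The log2 fold change was -0.43 ± 0.17 (adjusted p = 0.18, edgeR), and without that heart it was -0.63 (adjusted p = 0.0147, edgeR), the only leave-one-out fit of 10 in which it passed (adjusted p up to 0.307). The log2 ratio of Kcnv2 to Kcna5 counts was -1.33 ± 0.496 in S1Pless hearts and -0.45 ± 0.316 in control hearts (SD, n = 5 each), with replicate 3, at -0.56, the only S1Pless heart inside the control range of -0.95 to -0.07. Kcnq1, the pore of the slow delayed rectifier of larger mammals, and its partner Kcne1 had log2 fold changes of -0.16 ± 0.11 and -0.39 ± 0.26 (adjusted p = 0.465 and 0.438, edgeR). Kcne1 was sparse, with 34 to 92 reads per library, and the log2 ratio of Kcne1 to Kcnq1 counts spanned -4.46 to -3.53 in S1Pless hearts and -4.58 to -3.06 in control hearts.

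The inward rectifier Kcnj2, the main pore of the resting potassium current, showed the same single heart. It had 46.3, 42.5, 68.8, 49.3 and 46.3 CPM in S1Pless hearts and 58.9, 63.7, 55.5, 58.3 and 65.9 CPM in control hearts. Again 4 S1Pless hearts lay below all controls and replicate 3 above them all. Its log2 fold change was -0.26 ± 0.12 (adjusted p = 0.253, edgeR), and -0.39 without replicate 3 (adjusted p = 0.0319, edgeR), the only leave-one-out fit of 10 in which it passed (adjusted p up to 0.421). Kcnj12, a further pore of this current, ran from 9.61 to 16.4 CPM in S1Pless hearts and from 9.01 to 24.7 CPM in control hearts, and its log2 fold change of -0.40 ± 0.23 did not pass (adjusted p = 0.366, edgeR).

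The other potassium channels lay lower without a call. Kcnk3, the background channel TASK1, had the highest level per length of the potassium channel genes described here. Its values were 193.9, 247.2, 259.6, 280.9 and 241.9 CPM in S1Pless hearts and 242.1, 367.8, 277.9, 293.4 and 366.9 CPM in control hearts (log2 fold change -0.34 ± 0.14, adjusted p = 0.183, edgeR). Only S1Pless replicates 1 and 5 lay below the lowest control. Kcnn2, a small-conductance channel opened by calcium, ran from 16 to 23.1 CPM in S1Pless hearts and 21 to 26.1 CPM in control hearts, with 4 S1Pless hearts below all controls (log2 fold change -0.24 ± 0.10, adjusted p = 0.207, edgeR). ATP-sensitive channels join a pore, such as that of Kcnj11, with a sulphonylurea receptor, such as that of Abcc8. A further receptor gene, Abcc9, was in the list of other potassium channel genes. Kcnj11 and Abcc8 had log2 fold changes of -0.24 ± 0.12 and -0.19 ± 0.10 (adjusted p = 0.288 and 0.313, edgeR). Abcc8 was even across controls, at 37.3 to 41.4 CPM, and uneven in S1Pless hearts, with 40.2 and 39.2 CPM in replicates 2 and 4 and 29.8 to 31.9 CPM in the other 3.

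Pacemaker channel genes overlapped widely between the groups. Hcn2, the main ventricular HCN gene, had 12.7, 17.4, 21.4, 23.8 and 20.8 CPM in S1Pless hearts and 12.7, 21.1, 20, 27.7 and 38.4 CPM in control hearts. Hcn4, the channel of the sinus node and conduction system, had 7.99, 5.4, 12.9, 12.0 and 13.7 CPM in S1Pless hearts and 10.9, 13.2, 12.0, 16.5 and 14.5 CPM in control hearts. Both genes were lowest in S1Pless replicates 1 and 2 and in control replicate 1 within their groups, and the log2 fold changes of -0.32 ± 0.25 and -0.37 ± 0.21 did not pass (adjusted p = 0.501 and 0.359, edgeR). The conduction system list had a median log2 fold change of 0.02, with 0 of 14 tested markers called, 0 at an unadjusted p below 0.05 and 0 called by DESeq2.

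No connexin or pump gene passed the test. Gja1, the main ventricular gap junction gene, had 399.3, 445.3, 320.1, 444.9 and 416.8 CPM in S1Pless hearts and 416.4, 404.4, 478.5, 487.8 and 520.7 CPM in control hearts. The groups overlapped, with S1Pless replicate 3 lowest, and the log2 fold change of -0.19 ± 0.12 did not pass (adjusted p = 0.393, edgeR). An approximate 95% interval was -0.41 to 0.04. It was taken from the normal distribution and is thus too narrow for so few hearts. Gjc1, the connexin of the conduction system and of vessel cells, ran from 23.1 to 29.6 CPM in S1Pless hearts and 21 to 28.2 CPM in control hearts (log2 fold change 0.11 ± 0.10, adjusted p = 0.562, edgeR), and is the third gene above 0 beside Scn3b and Kcna5. Atp1b1, the beta subunit that the pump needs to reach the membrane, had log2 fold change -0.16 ± 0.10, and Fxyd1, which encodes the pump inhibitor phospholemman, -0.24 ± 0.15 (adjusted p = 0.399 and 0.394, edgeR). Atp1b1 ran from 202.5 to 243.9 CPM in S1Pless hearts and 220.3 to 294.3 CPM in control hearts. Fxyd1 had 268.1 and 264.3 CPM in S1Pless replicates 1 and 2 and 196.3 to 209.3 CPM in the other 3, against 327.6 and 329.7 CPM in control replicates 1 and 3 and 220.3 to 236.6 CPM in the other 3 controls.

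Per kilobase of exon, the levels of the 27 genes ran over more than 3 powers of 10. The top was Fxyd1, at 104.3 CPM per kb in S1Pless hearts and 122.9 CPM per kb in control hearts, followed in both groups by Atp1b1 (73.7 and 82.3 CPM per kb), Kcnk3 (61.5 and 77.9), Gja1 (39.5 and 45) and Kcnip2 (32.5 and 44.4). In control hearts Gja1 and Kcnip2 did not differ beyond their spread, nor did Kcnj3, Kcnj11, Kcnh2 and Kcnj5, which lay between 17.8 and 21 CPM per kb. The lowest 3 were Scn3b (0.401 and 0.217 CPM per kb in S1Pless and control hearts), Kcna4 (0.166 and 0.197) and Dpp6 (0.0474 and 0.0502). The gene called higher was thus among the scarcest of the set. Kcna5 stood at 13.9 CPM per kb in S1Pless hearts, level with Kcnj5, and at 10.7 CPM per kb in control hearts, below Kcnj5 at 17.8.

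**Figure D3:**
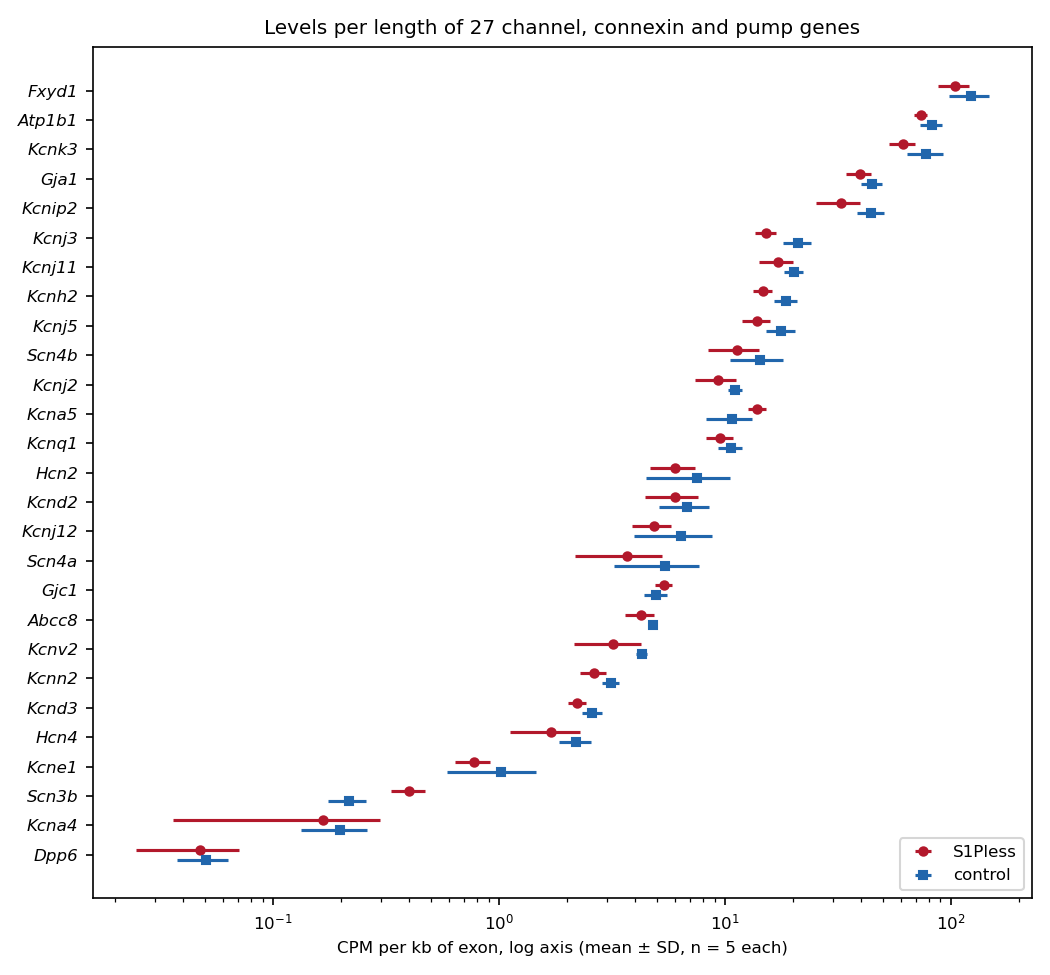
Level per kilobase of exon (x axis, CPM per kb, log scale) of the 27 genes (y axis, ordered by the control mean); points are means and bars the SD over 5 hearts, circles S1Pless and squares control. Levels fall from Fxyd1, above 100 CPM per kb in both groups, to Dpp6 at 0.0474 and 0.0502 CPM per kb in S1Pless and control hearts, and Scn3b and Kcna5 show the S1Pless mean right of the control mean.

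In 7 genes the same hearts were lowest within the groups. Scn4b, Scn4a, Kcnj12, Kcnj5, Kcnh2, Hcn2 and Hcn4 were lowest in S1Pless replicates 1 and 2 within that group and lowest in control replicate 1 within the other. This order was seen in 7 of the 26 genes (26.9%) and in 9.64% of all genes tested; it was noticed in the data and not tested. The calcium release channel gene Ryr2 had it too, with 892.0 and 1247.3 CPM in S1Pless replicates 1 and 2 and 1189.1 CPM in control replicate 1. These 3 hearts carry neighbouring numbers in their sample titles, whose meaning the labels do not state. With a block for neighbouring numbers neither Scn3b nor Kcnj3 passed, at log2 fold changes of 0.83 and -0.51 (adjusted p = 0.184 and 0.0915, edgeR).

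**Figure D4:**
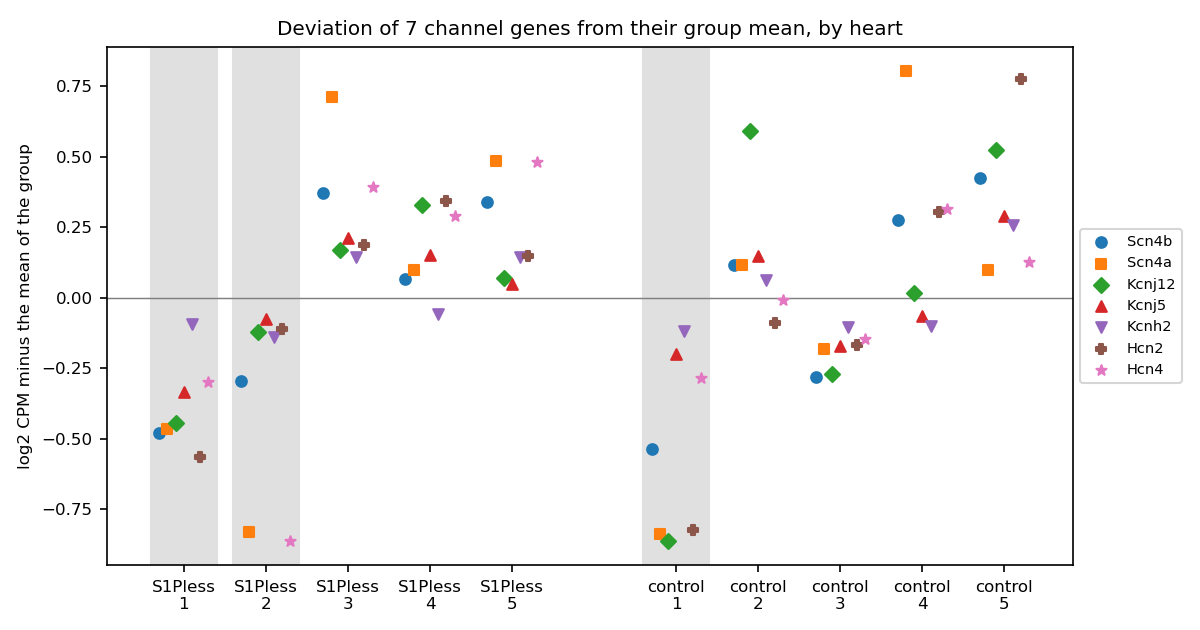
Log2 CPM of 7 channel genes minus the mean of the heart's own group (y axis) in each S1Pless and control heart (x axis); the grey bands mark S1Pless replicates 1 and 2 and control replicate 1. The 7 genes were picked for being lowest in the 3 banded hearts within their groups, so they lie below their group mean there by selection.

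Ratios of paired genes within a heart do not depend on library scaling, and 11 were compared without a test. Not all pairs form a channel together. Kcnv2 joins the Kcnb family rather than Kcna5, and Scn3b and Scn4b are both beta subunits. The groups overlapped in all 11. The largest differences of the means were 1.22 on the log2 scale for Scn3b over Scn4b and -0.88 for Kcnv2 over Kcna5. In each of these pairs the log2 fold changes of the genes had opposite signs. The log2 ratio of Gjc1 to Gja1 was -3.91 ± 0.267 in S1Pless hearts and -4.22 ± 0.239 in control hearts, and that of Kcnip2 to Kcnd2 1.88 ± 0.681 in S1Pless hearts and 2.17 ± 0.493 in control hearts (SD, n = 5 each). For Kcnip2 over Kcnd2, S1Pless replicate 5 was lowest at 0.84. The other 7 differed by 0.18 or less on the log2 scale.

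**Figure D5:**
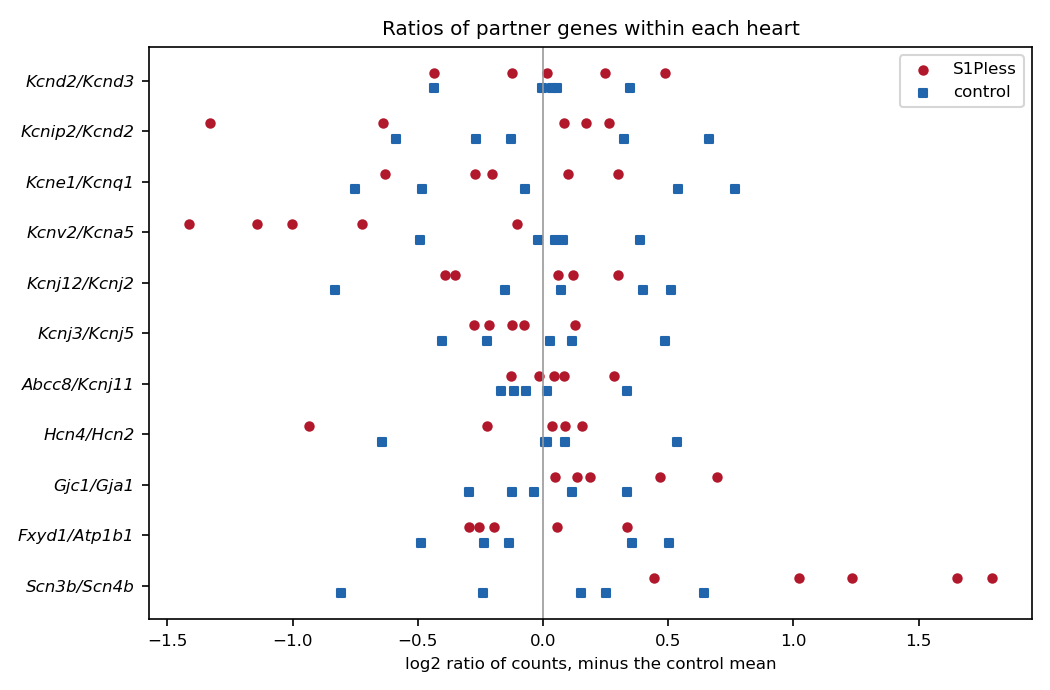
Log2 ratio of counts of 11 pairs of genes in each heart, minus the control mean (x axis), by pair (y axis). Circles are S1Pless hearts and squares control hearts. The S1Pless hearts lie mostly right of the controls for Scn3b over Scn4b and left of them for Kcnv2 over Kcna5, and are mixed with them in the other pairs.

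Lists of other genes of the same currents gave 1 call. Kcnk6, which encodes the background channel TWIK2, had 7.99 to 9.77 CPM in S1Pless hearts and 5.01 to 6.64 CPM in control hearts, without overlap (log2 fold change 0.51 ± 0.11, adjusted p = 0.027, edgeR). It was the only edgeR call among 34 further potassium channel genes tested, whose median log2 fold change was 0.13, and DESeq2 and limma-voom called 2 each. Of 7 further sodium channel genes 0 passed in edgeR, DESeq2 or limma-voom and 1 had an unadjusted p below 0.05, with a median of 0.16; nearest was Scn7a at 0.3 ± 0.11 (adjusted p = 0.162, edgeR). Of 7 further HCN, connexin and pannexin genes 0 passed in any of the 3 tools and 2 had an unadjusted p below 0.05, and the connexin Gja3 and pannexin Panx1 had log2 fold changes of -0.26 ± 0.09 and 0.52 ± 0.23 (adjusted p = 0.131 and 0.236, edgeR). Of 9 further pump genes 0 passed in edgeR, with 4 at an unadjusted p below 0.05, 2 of them higher and 2 lower. DESeq2 called 2 higher and 1 lower and limma-voom 1 higher. The summed level of the pump list was 1373.7 to 1727.0 CPM in S1Pless hearts and 1733.6 to 2158.0 CPM in control hearts. The 2 with the smallest p, the pump modulators Fxyd5 and Fxyd6, had log2 fold changes of 0.51 ± 0.15 and 0.44 ± 0.13 (adjusted p = 0.0823 and 0.0858, edgeR).

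No gene that anchors or controls the channels was called by edgeR. Of 28 anchors and modulators tested, 25 had a log2 fold change below 0, with a median of -0.17 and 0 called; 4 had an unadjusted p below 0.05, and DESeq2 called 2 lower and limma-voom 0. Ctnna3, a catenin of the intercalated disc, had 28.9 ± 0.895 CPM in S1Pless hearts and 35.7 ± 4.13 CPM in control hearts, and Fgf13, which tunes sodium channel inactivation, 49.8 ± 5.2 CPM in S1Pless hearts and 59.3 ± 2.43 CPM in control hearts (SD, n = 5 each). The groups did not overlap in either, and neither passed (adjusted p = 0.0675 and 0.118, edgeR). Of 26 transcription factors of conduction and repolarisation 0 passed in edgeR, 4 had an unadjusted p below 0.05, and DESeq2 called 1 and limma-voom 0, with 19 of the 26 log2 fold changes below 0 and a median of -0.12; Hopx and Tbx2 had log2 fold changes of -0.45 ± 0.14 and 0.27 ± 0.10 (adjusted p = 0.0854 and 0.162, edgeR).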

How the data were processed

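The authors deposited unnormalised read counts for each gene in 10 hearts. The submitters' processing notes list STAR 2.7.8a, featureCounts 2.0.1 and GRCm39, and RNA was extracted with TRIzol and RNeasy columns and made into stranded mRNA libraries per the labels' protocols. Not given in the sources used here are the annotation, the strand setting and the treatment of multi-mapping reads. Without strand, reads of Kcnd3, Kcnj3, Kcnq1, Kcnk3, Kcnn2 and Atp1b1 and of the antisense or opposite genes that share exons with them in GENCODE M21 cannot be told apart; for Kcnj3 the shared stretch is 1621 of 5215 exon bases.

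Symbols and exon lengths come from GENCODE M21 (GRCm38), and lengths may differ from those counted. Groups follow the genotype label, replicates are numbered in accession order, and the labels pair no animals. The controls are called littermates in the series title, but no label gives the litter of a mouse. The p-values weigh the group difference against the spread between hearts of a group. They treat the hearts as independent, which could not be checked without the litters. All 20 pairs of libraries within a group differed by more than counting error (chi-square over its degrees of freedom 10.1 or more). Counts were fitted with edgeR 4.0.16 in R 4.3.3 (filterByExpr with minimum count 10, TMM, robust quasi-likelihood, two-sided, Benjamini-Hochberg over 12992 genes, threshold 0.05). The test was checked on simulated counts of independent hearts. That check does not cover hearts that vary together. Standard errors are the log2 fold change over the square root of F. Depth did not differ between groups beyond its spread (exact permutation p = 0.54). Alternatives were DESeq2 1.42.0, limma 3.58.1 voom, other scalings and filters, covariates and leaving out each heart; scaling to 16 cardiomyocyte markers was added after seeing the data. The members and gene lists were chosen with earlier results of these data known, so counts and medians of lists are descriptions. All 27 genes are described; of each other list up to 4 called genes, or the 2 with the smallest p, are named, with the kinase genes; some genes of these lists are not reported here. Ryr2 was named after its values were seen. Of the 27 genes, 18 had an entry in the RefSeq promoter table.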

Additional observations from a re-analysis of the deposited data

Results flagged for a closer look

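In 2 of 52 groups of 5 hearts, over the 26 tested genes, 1 heart stood far from the other 4 by Dixon's criterion (a gap of more than 0.71 of the group's range), where chance gives about 1 in 20. Kcnj2 was 68.8 CPM in S1Pless replicate 3, against 42.5 to 49.3 CPM in the other S1Pless hearts. That heart also held reads of Myl7 and Sln, but its sum of the atrial list was 192.1 CPM, within the range of the other S1Pless hearts; their part in this value was not tested. Kcnd3 was 18 CPM in S1Pless replicate 1, against 21.7 to 22.6 CPM in the other S1Pless hearts.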

How the results depend on the processing

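Over all genes, 442 were called higher and 41 lower. The counts were 1420 and 13 with library totals alone, 753 and 266 in DESeq2, 80 and 8 with a block for neighbouring title numbers, and 1934 and 4 with cardiomyocyte marker scaling. Leaving out each heart gave 118 to 504 higher and 8 to 85 lower. Among the channel genes, 1 was called higher and 1 lower. The counts were 2 and 0 with library totals alone and with cardiomyocyte marker scaling, and 0 and 0 with the neighbouring number block. DESeq2 called 3 lower (Kcnj3, Kcnh2 and Kcnip2), and limma-voom and the title series covariate 2 (Kcnj3 and Kcnh2). Leaving out each heart gave 0 to 2 higher and 0 to 3 lower. Scn3b lost its call without S1Pless replicate 1, 2 or 5 or control replicate 3, 4 or 5, and Kcnj3 without S1Pless replicate 1, 2, 4 or 5 or control replicate 3, 4 or 5; both kept their sign in every fit run. With cardiomyocyte marker scaling the log2 fold changes turned to 0.04 for Kcnd2, 0.02 for Abcc8, 0.05 for Kcnq1, 0.02 for Gja1 and 0.04 for Atp1b1. With hearts left out, Kcna4 ranged from -0.72 to 0.05 (without S1Pless replicate 4 and without S1Pless replicate 3). The median of the 26 genes minus that of all genes was -0.24 with TMM, library totals and cardiomyocyte marker scaling. Changing the scaling shifts the log2 fold changes of all genes by nearly the same amount. This difference of medians is thus nearly fixed in advance and does not test the scaling. The median of all genes was -0.01 with TMM, 0.12 with library totals and 0.19 with cardiomyocyte marker scaling. Kcnk6 lost its call with the neighbouring number block (adjusted p = 0.177, edgeR) and without S1Pless replicate 5 or control replicate 3 or 4. The causes of these changes were not tested. Control replicates 3 and 4 shared a level of the block with no S1Pless heart. No paired analysis was possible because the labels give the hearts no shared numbers. Depth limits Dpp6, Kcna4, Kcne1 and Scn3b, which had fewer than 100 reads per library.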
